A study of Homo sapiens with 8 samples.

Results

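Chloride crosses cell membranes through several unrelated families of channel proteins. CFTR is the channel opened by cyclic AMP signalling. The anoctamins (ANO) hold calcium-activated chloride channels and lipid scramblases, the CLC proteins (CLCN) hold plasma membrane channels and chloride-proton exchangers of endosomes and lysosomes, and the LRRC8 proteins assemble into the volume-regulated anion channel. Bestrophins (BEST) are calcium-activated anion channels, CLCA proteins are secreted or membrane-bound modulators of calcium-activated chloride current, and CLIC proteins exist in soluble and membrane-associated forms. Annexin A4, which binds membrane phospholipids in the presence of calcium, has been described as an inhibitor of calcium-activated chloride conductance in epithelial cells.

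The genes described here are those whose symbol, looked up from the Entrez identifier, was CFTR or that of a numbered or lettered member of the ANO, BEST, CLCA, CLCN, CLIC and LRRC8 families. There were 38 such genes among the 28395 in the deposited table, namely 10 ANO, 4 BEST, 3 CLCA, 9 CLCN, 6 CLIC and 5 LRRC8 genes and CFTR. The pseudogenes ANO7L1 and CLCA3P and the antisense gene CLCA4-AS1 also matched the naming pattern and were left out.

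The RNA came from A-498 cells, a long-established line from a human kidney cancer, and the study asked how the transcriptome differs between control cells and cells without ANXA4. Polyadenylated RNA was sequenced from 8 cultures, 2 replicates of each of 4 derived lines. Control line 1 and control line 2 are labelled wild type and carried non-targeting sgRNA-1 and sgRNA-2. The KO guide 1 line and the KO guide 2 line are labelled ANXA4 knockout and carried ANXA4 sgRNA-1 and sgRNA-2. All were seeded at equal cell numbers, grown in the same serum-containing medium and harvested after 24 h, before confluence. Each guide was present in 1 line, so a difference between lines and an effect of a guide cannot be told apart, and the labels do not say whether a line is a clone or whether its 2 replicates were separate cultures from the start. P-values therefore measure the spread between these libraries, which may be partly technical. In the comparisons between lines this is the spread between the 2 replicates of a line, shared over the lines. Variation between the lines themselves is left out of that error. These are bulk samples, in which fewer cells with a transcript and less of it per cell cannot be told apart.

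The targeted gene was read first. In control line 1 ANXA4 reached 2821 and 3614 normalized reads, and in control line 2 it reached 3858 and 6773. The KO guide 1 line had 236 and 234, a log2 difference of -4.10 from the controls (SE 0.22, limma adjusted p = 5.88e-05). The KO guide 2 line had 3433 and 4142, within the control range (log2 difference -0.10, SE 0.22, limma adjusted p = 0.817). ANXA4 transcript was thus low only in the 2 libraries labelled KO guide 1, and transcript counts say nothing of the protein in the line labelled KO guide 2. The 2 knockout-labelled lines are therefore described separately below.

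Libraries held 15784890 to 22631588 reads, of which mitochondrial genes took 4.67% to 13.8%, with the highest share in replicate 2 of the KO guide 2 line. All 10 markers of renal epithelium and clear cell kidney cancer passed the filter on low values, although CA9 reached no more than 24.8 in any library. Of 5 markers of intercalated cells 2 passed the filter, and the 5 summed to 31.8 to 58.9 in the controls and 20.7 to 39.8 in the knockout-labelled libraries. Of these FOXI1 and SLC4A1 stood at 0 to 1.04, SLC26A4 at 16.5 to 41.6, ATP6V1B1 at up to 11.3 and ATP6V0D2 at 6.88 to 11.4 in the controls and 0.783 to 3.11 in the knockout-labelled libraries, and their part in the results was not tested. UMOD and SLC12A1 of the thick ascending limb were at 0 in every library. Of 4 leukocyte markers only CD68 was above 2.08, at 1784 to 4409, and the 3 endothelial markers summed to at most 6.24. Of 4 fibroblast markers only COL1A1 was above 4.16. Its values were 548 to 1408 in the control libraries and 177 to 511 in the knockout-labelled ones, and its part in the results below was not tested.

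The promoters of the chloride channel genes differ in base composition. RefSeq promoter windows on GRCh38.p14, taken as the 250 bases before a gene's start, were found for 31 of the 38 genes, and for 24 of these the start was the outer end of the gene. The other 7 (ANO1, ANO4, ANO5, ANO6, BEST4, CLIC1 and LRRC8C) had a start inside the gene and were set aside. The 4 stretches below are examples. CLIC4 had the highest level per kb of exon among the genes tested, and CLCN3 differed between lines. CFTR and CLCA2 had almost no reads. Capitals mark GGGCGG or its reverse complement CCGCCC, the letters of a GC box, the motif bound by SP family factors. Each stretch lies on the plus strand and ends before the first annotated transcribed base of a coding gene in its window, which leaves 1 of the 2 matches of the CLIC4 window outside the stretch shown.
CLIC4, chr1:24745197-24745356: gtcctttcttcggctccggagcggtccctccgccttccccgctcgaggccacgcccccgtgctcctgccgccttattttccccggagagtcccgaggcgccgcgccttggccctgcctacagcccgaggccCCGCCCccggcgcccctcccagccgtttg
CLCN3, chr4:169620328-169620520: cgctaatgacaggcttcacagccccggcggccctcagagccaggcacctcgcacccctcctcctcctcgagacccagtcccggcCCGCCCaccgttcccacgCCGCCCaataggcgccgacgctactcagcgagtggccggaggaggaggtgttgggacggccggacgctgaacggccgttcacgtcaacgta
CFTR, chr7:117479775-117479962: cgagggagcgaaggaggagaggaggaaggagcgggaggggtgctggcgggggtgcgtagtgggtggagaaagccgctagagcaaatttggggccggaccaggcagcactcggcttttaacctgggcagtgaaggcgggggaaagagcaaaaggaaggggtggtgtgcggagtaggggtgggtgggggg
CLCA2, chr1:86423921-86424085: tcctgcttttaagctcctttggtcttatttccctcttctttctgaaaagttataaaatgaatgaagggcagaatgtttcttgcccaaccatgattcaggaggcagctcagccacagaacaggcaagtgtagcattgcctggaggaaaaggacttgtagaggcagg

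GGGCGG on either strand was present in the windows of 12 of the 13 genes that passed the filter described next, the exception being CLCN4, and of 2 of the 11 that did not, BEST2 and CLIC3. The windows of genes that passed held a median of 25 CpG dinucleotides (5 to 40), those of the others a median of 3 (0 to 22), so the ranges overlapped. CLIC4 and CLCN3 held 30 each, CFTR 11 and CLCA2 0. Of 12797 protein-coding genes with such windows 57.2% held the motif, 68.3% of those that passed the filter and 34.2% of those that did not, with medians of 21 and 6 CpG. A match of letters is a description and not a binding site.

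Of the 38 genes, 18 had a normalized count of at least 10 in at least 2 libraries and entered the tests. They were ANO6 to ANO10, BEST3, CLCN2 to CLCN7, CLIC4 and all 5 LRRC8 genes. The other 20 had too few reads to be tested, and 13 of these had at most 3 reads in any library. ANO9 and BEST3 passed through their knockout-labelled libraries alone, so they had to differ to be tested at all. The genes just outside the filter were BEST1, with 17.7 in 1 library and at most 7.26 in the others, CLIC1, with at most 10.3, and CLIC3, with at most 10.2.

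The best known epithelial chloride channel genes had almost no reads in these libraries. CFTR had 1 read in 8 libraries, in replicate 1 of control line 1, and 0 in the other 7. ANO1, the calcium-activated channel of secretory epithelia, also had 1 read, in replicate 2 of control line 1. CLCN1, the skeletal muscle channel, reached 3.13. ANO5, CLCA1, CLCA4 and CLIC6 had no read in any library. Counts of 0 allow up to 3 reads, which corresponds to 2.35 to 3.62 normalized counts depending on the library, a limit that covers counting error only.

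The weakly detected families had small maxima. BEST4, the highest bestrophin per length, had 3.68 and 5.20 in control line 1, 0.86 and 5.66 in control line 2, 0.78 and 4.15 in the KO guide 1 line and 3.10 and 4.83 in the KO guide 2 line. CLCA2, the highest of its family, had 3.68, 3.12, 1.72 and 0 in the control libraries and 0.78, 0, 0 and 2.41 in the knockout-labelled ones, in the same order. In both genes the arms overlapped. BEST1, the bestrophin of the retinal pigment epithelium, shares exon sequence positions with FTH1 on the opposite strand, and strand use in counting is not given in the sources used here.

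Levels of different genes were compared after division by exon length. CLIC4, a soluble protein that also associates with membranes, led with a mean of 766 normalized counts per kb of exon (SD 123, n = 8 libraries). ANO6 followed with 321 (SD 69.5), LRRC8D with 313 (SD 34.7), the lysosomal exchanger gene CLCN7 with 272 (SD 38.5), LRRC8A with 258 (SD 56.5), the endosomal exchanger gene CLCN3 with 186 (SD 39.9), ANO10 with 170 (SD 48.4) and LRRC8E with 111 (SD 7.79). The libraries of CLIC4 did not overlap those of ANO6, and those of LRRC8E did not overlap those of ANO8, the next in order. From ANO6 down to LRRC8E each gene overlapped its neighbour. ANO8 (42.4), LRRC8C (39.2), LRRC8B (31.6), CLCN4 (20.0) and CLCN2 (18.5) likewise overlapped their neighbours. CLCN6 (9.82) stood above CLCN5 (2.98) in every library, and ANO7 (2.95), ANO9 (1.06) and BEST3 (0.927) closed the order.

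**Figure D1:**
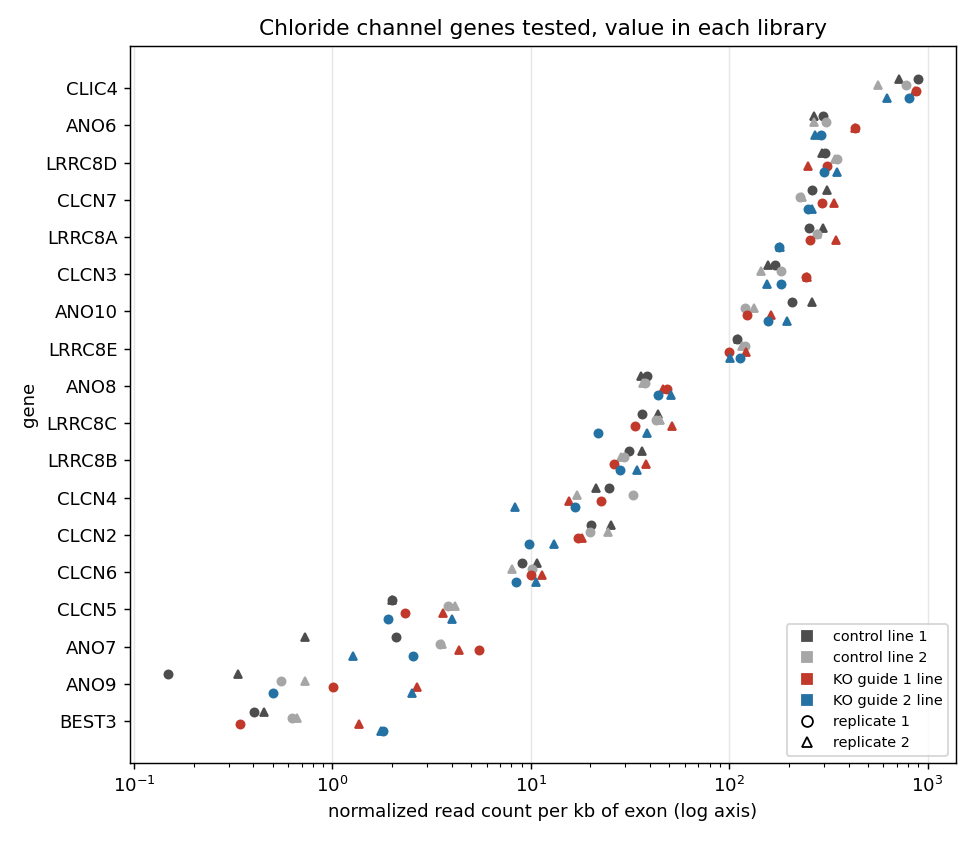
Normalized read count per kb of exon, on a log axis, of the 18 chloride channel genes tested, ordered by their mean. Each point is 1 library, coloured by line and shaped by replicate. CLIC4 lies above all other genes, with a mean of 766, and BEST3 has the lowest mean, 0.927.

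Summed over all 38 genes, chloride channel transcripts came to 2260 to 2679 normalized counts per kb in the control libraries, 2821 and 2966 in the KO guide 1 line and 2419 and 2323 in the KO guide 2 line. CLIC4 made up 24.8% to 33.4% of this sum in every library, and CLIC1, with its few reads, added almost nothing to it. The counts of CLIC1 were not taken as a measure of its transcript, as described below. The sum and the share of CLIC4 therefore leave the CLIC1 transcript unmeasured. Per library, CLIC4 had 4024 and 3213 normalized counts in control line 1, 3498 and 2516 in control line 2, 3942 and 3910 in the KO guide 1 line and 3607 and 2824 in the KO guide 2 line. CLCN7 had 2131 and 2522, 1847 and 1897, 2385 and 2741, and 2026 and 2132 in the same lines. Neither gene was called between any lines in the model without a replicate term.

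The first comparison set the 4 knockout-labelled libraries against the 4 control libraries. No chloride channel gene passed an adjusted p of 0.05 (limma with the libraries of a line treated as correlated, Benjamini-Hochberg over 14040 genes), where 0.235% of all tested genes did (0.264% with the replicate number as a block, again with none of the 18). At an unadjusted p under 0.05 there was 1 such gene of 18, CLCN2, against 11.5% of all tested genes. CLCN2 encodes ClC-2, a plasma membrane chloride channel opened by hyperpolarization. It had 171 and 215 in control line 1, 170 and 210 in control line 2, 147 and 155 in the KO guide 1 line and 83.8 and 112 in the KO guide 2 line. All knockout-labelled libraries thus lay below all controls, and the difference of -0.65 on the log2 scale (SE 0.25) had a limma adjusted p of 0.348. For this gene edgeR gave an adjusted p of 0.174 and DESeq2 0.0904. Both tools treated the 4 libraries of an arm as independent, which the limma fit did not. Neither tool called any of the 18 genes, beside 186 and 850 of all 14040 genes. The fit with a separate mean per line, which leaves variation between lines of an arm out of the error, gave 0.0344. It called this 1 gene of the 18, beside 1474 of all 14040 genes.

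ANO8, which encodes a protein of contacts between endoplasmic reticulum and plasma membrane, was the other gene whose arms did not overlap. Its values were 193, 179, 188 and 184 in the controls and 241, 230, 218 and 255 in the knockout-labelled libraries, a log2 difference of 0.34 (SE 0.16, limma adjusted p = 0.455). ANO8 shares exon positions with DDA1 on the opposite strand, and their reads could be told apart only if counting used strand. Non-overlap of the arms was found for 2 of 18 chloride channel genes and for 10.6% of all genes tested. ANO6 and LRRC8A differed by 0.29 (SE 0.18, limma adjusted p = 0.612) and -0.26 (SE 0.22, limma adjusted p = 0.731) in this comparison. The median over the 18 genes was 0.05, beside 0.000732 over all tested genes.

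In the KO guide 1 line 2 chloride channel genes rose against both control lines, ANO6 and CLCN3. This was 2 of 18, beside 7.01% of all tested genes called in that comparison and 3.82% called higher. ANO6 (Entrez gene 196527, chr12:45216095-45440404) encodes TMEM16F, which moves phospholipids between the leaflets of the plasma membrane when calcium rises and also conducts ions. It had 2448 and 2207 in control line 1, 2526 and 2218 in control line 2, 3537 and 3562 in the KO guide 1 line and 2395 and 2237 in the KO guide 2 line. Both KO guide 1 libraries stood above every other library, and the KO guide 2 libraries lay among the controls. The rise was 0.60 on the log2 scale (SE 0.11, limma adjusted p = 0.0183), or 1.51-fold.

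CLCN3 (Entrez gene 1182, chr4:169620578-169723673) encodes ClC-3, a chloride-proton exchanger of endosomes and synaptic vesicles. It had 1378 and 1275 in control line 1, 1491 and 1177 in control line 2, 1993 and 2015 in the KO guide 1 line and 1491 and 1264 in the KO guide 2 line. The 2 KO guide 1 libraries were again the highest of the 8. CLCN3 rose by 0.60 on the log2 scale (SE 0.13, limma adjusted p = 0.0352), also 1.51-fold. LRRC8A differed by 0.10 in this line (SE 0.14, limma adjusted p = 0.697).

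The calls in the KO guide 1 line rested on few libraries. Each fit below that lost a call also called fewer of all genes than the main fit. Without replicate 1 or 2 of control line 1, or replicate 1 or 2 of the KO guide 1 line, ANO6 had limma adjusted p-values of 0.0507, 0.0780, 0.152 and 0.161, and CLCN3 of 0.0823, 0.118, 0.205 and 0.223. CLCN3 also lost its call without replicate 2 of control line 2 (0.0712) and with equal library totals (0.0647), although the rise stayed between 0.55 and 0.64 for ANO6 and between 0.51 and 0.68 for CLCN3 over all alternatives. In the fit with a replicate block, the limma adjusted p was 0.000651 for ANO6 and 0.00135 for CLCN3. That fit called 5 chloride channel genes and 24.4% of all genes, adding ANO9 (1.70, 0.0410), CLCN7 (0.30, 0.0349) and ANO7 (1.14, 0.0451), each given with its log2 difference and adjusted p. ANO9 is counted here although it passed the filter through its knockout-labelled libraries alone and had to differ to be tested.

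**Figure D2:**
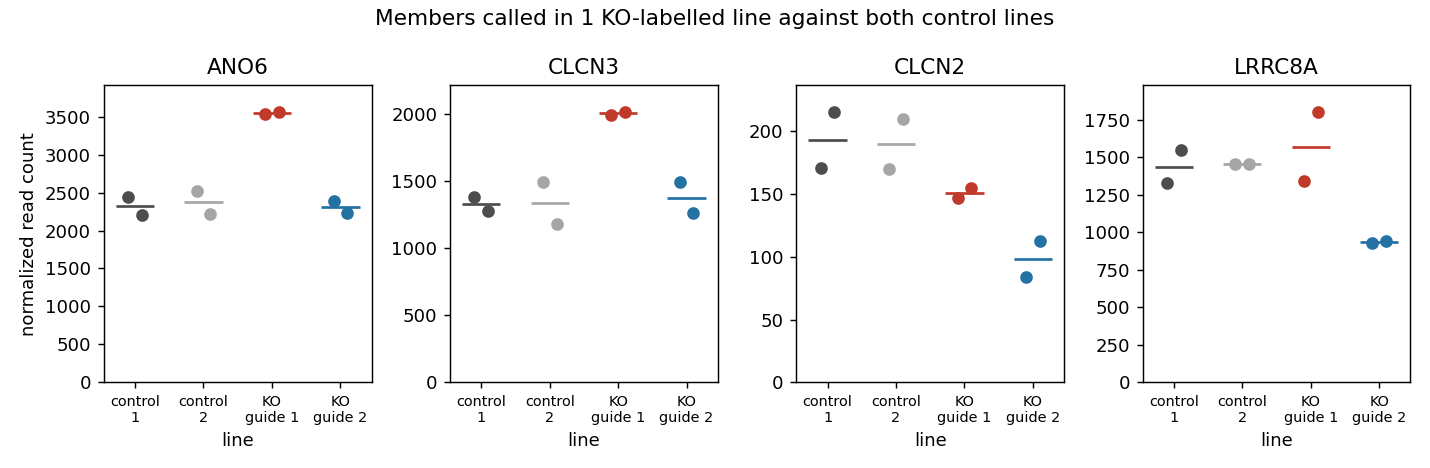
Normalized read count of ANO6, CLCN3, CLCN2 and LRRC8A in each library, by line. Points are libraries (replicate 1 left, replicate 2 right), bars are line means, and all axes start at 0. ANO6 and CLCN3 are highest in the KO guide 1 line, CLCN2 and LRRC8A lowest in the KO guide 2 line.

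In the KO guide 2 line, where ANXA4 transcript lay within the control range, 2 other chloride channel genes fell, CLCN2 and LRRC8A. This was 2 of 18, beside 11.2% of all tested genes called and 6.67% called lower. CLCN2 (Entrez gene 1181, chr3:184346185-184361605), with the values given above, fell by 0.96 on the log2 scale (SE 0.19, limma adjusted p = 0.0156), to 0.513 of the control level. FAM131A overlaps CLCN2 on the opposite strand, and reads of the 2 genes could be told apart only if counting used strand.

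LRRC8A (Entrez gene 56262, chr9:128882133-128918039) encodes the subunit that every volume-regulated anion channel needs. It had 1329 and 1549 in control line 1, 1457 and 1457 in control line 2, 1340 and 1803 in the KO guide 1 line and 931 and 940 in the KO guide 2 line. The KO guide 2 libraries were the lowest of the 8 and did not overlap any other line. LRRC8A fell by 0.63 on the log2 scale (SE 0.14, limma adjusted p = 0.0242), to 0.647 of the control level. ANO6 differed by -0.02 (SE 0.11, limma adjusted p = 0.939).

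CLCN2 lost its call without replicate 2 of control line 1 (limma adjusted p = 0.0563) or replicate 1 of the KO guide 2 line (0.0831). LRRC8A lost its call without replicate 1 or 2 of control line 1 (0.0507 and 0.0835) or replicate 1 or 2 of the KO guide 2 line (0.0815 and 0.0784). Fewer of all genes were called in each of these fits as well. With the replicate block the limma adjusted p was 0.000529 for CLCN2 and 0.00120 for LRRC8A. That fit called 4 chloride channel genes and 27.4% of all genes, adding LRRC8C, lower by 0.52 (adjusted p = 0.0183), and CLCN4, lower by 0.97 (adjusted p = 0.00226). The KO guide 1 and KO guide 2 comparisons share their 4 control libraries.

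**Figure D3:**
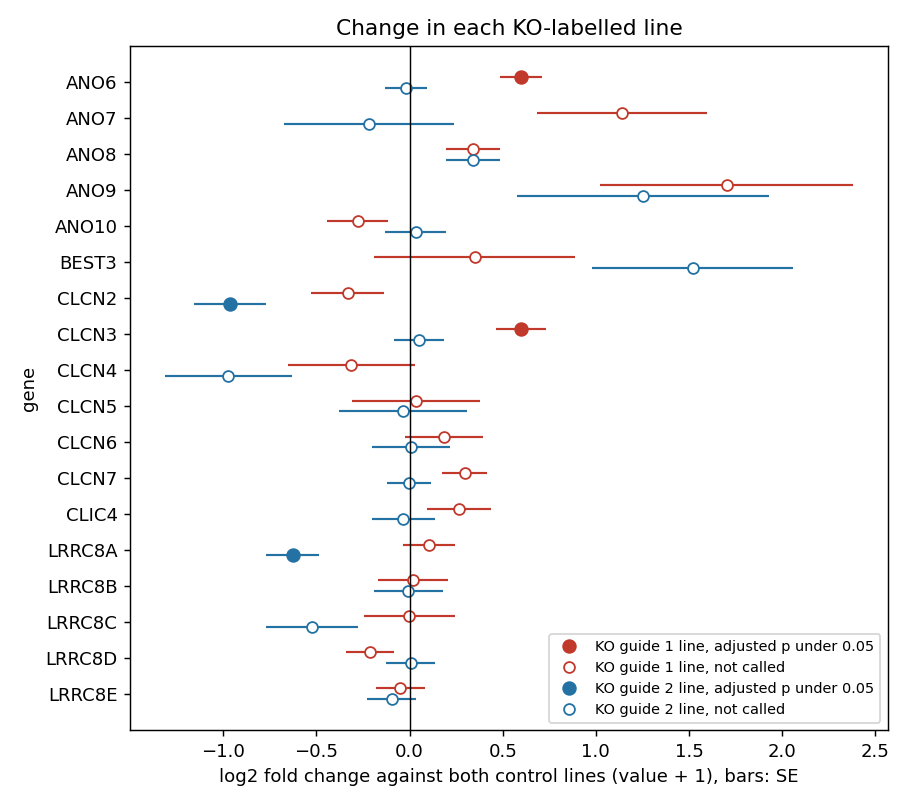
Log2 fold change of the 18 tested chloride channel genes in each knockout-labelled line against both control lines, with bars of 1 standard error. Filled points passed a limma adjusted p of 0.05: ANO6 and CLCN3 in the KO guide 1 line, CLCN2 and LRRC8A in the KO guide 2 line. The wide bars belong to genes with low counts, ANO7, ANO9 and BEST3.

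Counted by libraries alone, 6 of the 18 genes did not overlap between the KO guide 1 line and the controls, beside 33.9% of all genes tested: ANO6, ANO7, ANO8, ANO9 and CLCN3 were higher and CLCN2 lower. In the KO guide 2 line 5 of 18 did not overlap, beside 29.6% of all genes: BEST3 and ANO8 were higher and CLCN2, CLCN4 and LRRC8A lower. CLCN4, which encodes the endosomal exchanger ClC-4, had 168, 146, 223 and 117 in the controls, 154 and 106 in the KO guide 1 line and 114 and 56.7 in the KO guide 2 line. Both KO guide 2 libraries of CLCN4 and replicate 2 of the KO guide 1 line lay below all controls, and replicate 2 was below replicate 1 in every line. ANO9 had 0.92 to 4.53 in the controls, 6.26 and 16.6 in the KO guide 1 line and 3.10 and 15.7 in the KO guide 2 line. BEST3 had 2.76 to 4.53 in the controls, 2.35 and 9.34 in the KO guide 1 line and 12.4 and 12.1 in the KO guide 2 line. In both genes these are counts of a few reads. Both passed the filter through their knockout-labelled libraries alone, so they had to differ to be tested. ANO9 is nevertheless counted among the 6 above and BEST3 among the 5.

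The test of the difference between the 2 knockout-labelled lines addressed whether they departed from the controls alike. ANO6 was lower in the KO guide 2 line than in the KO guide 1 line by 0.62 (SE 0.13, limma adjusted p = 0.0290) and LRRC8A by 0.73 (SE 0.16, limma adjusted p = 0.0359). These were 2 of 18 genes, beside 6.94% of all genes tested and 4.53% called lower. CLCN3 was lower by 0.55 (SE 0.15) and CLCN2 by 0.63 (SE 0.22), with limma adjusted p-values of 0.0693 and 0.127, so for these a difference between the 2 lines was not shown in that fit. With the replicate block 7 genes passed, beside 24.5% of all genes: ANO6 (0.00149), LRRC8A (0.00161), CLCN3 (0.00558), CLCN2 (0.0185), LRRC8C (0.0395), ANO7 (0.0398) and CLCN4 (0.0411), all lower in the KO guide 2 line. The median over the 18 genes was -0.30, beside -0.01 over all tested genes, and 4 of the 18 were higher in the KO guide 2 line, beside 49.4% of all tested genes.

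The 2 non-targeting lines gave the spread between lines without an ANXA4 guide. None of the 18 chloride channel genes differed at an adjusted p of 0.05 with limma or edgeR, beside 299 (2.13%) and 286 of all 14040 genes. Of the 18, 3 had an unadjusted limma p under 0.05, beside 15.5% of all genes. ANO10, a member of the intracellular branch of the anoctamins, came nearest. It had 1100 and 1376 in control line 1, 636 and 704 in control line 2, 654 and 857 in the KO guide 1 line and 834 and 1032 in the KO guide 2 line. Control line 1 was thus the highest and control line 2 the lowest line, a difference of -0.88 (SE 0.19, limma adjusted p = 0.0542). DESeq2 called this 1 gene (0.00325), beside 655 of all 14040 genes, as did the replicate block (0.000562, with 12.5% of all genes called). On the log2 scale it was larger than the called differences of ANO6, CLCN3 and LRRC8A and smaller than that of CLCN2. ANO6 and LRRC8A differed between the control lines by 0.03 (SE 0.13) and 0.02 (SE 0.16), with limma adjusted p-values of 0.966 and 0.977. ANO10 shares exon positions with ABHD5 on the opposite strand, and their reads could be told apart only if counting used strand.

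The LRRC8 family was the only one with every member tested. LRRC8A pairs with LRRC8B to LRRC8E, and the partner sets which substrates the channel passes. Per kb of exon the 5 genes summed to 736 to 822 normalized counts in the controls, 728 and 804 in the KO guide 1 line and 640 and 703 in the KO guide 2 line. LRRC8A made up 34.5% and 37.8% of the sum in control line 1, 33.9% and 34.4% in control line 2, 35.2% and 42.9% in the KO guide 1 line and 27.8% and 25.6% in the KO guide 2 line. LRRC8D made up 37.8% to 42.7% in the controls, 42.8% and 30.9% in the KO guide 1 line and 46.7% and 49.7% in the KO guide 2 line. The KO guide 2 libraries thus had the lowest share of LRRC8A and the highest of LRRC8D.

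The counts of LRRC8D itself did not follow that order. It had 1474 and 1434 in control line 1, 1705 and 1660 in control line 2, 1513 and 1205 in the KO guide 1 line and 1452 and 1697 in the KO guide 2 line, and differed by 0.01 on the log2 scale between the KO guide 2 line and the controls (SE 0.13, limma adjusted p = 0.984). LRRC8E had 434 to 524 and LRRC8B 216 to 314 over all 8 libraries, and neither passed the test between any lines. LRRC8C had 427, 514, 500 and 528 in the controls, 395 and 607 in the KO guide 1 line and 258 and 450 in the KO guide 2 line. LRRC8C and LRRC8D lie side by side on chromosome 1 and share exon positions with a read-through gene, AC093423.3, on the same strand.

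**Figure D4:**
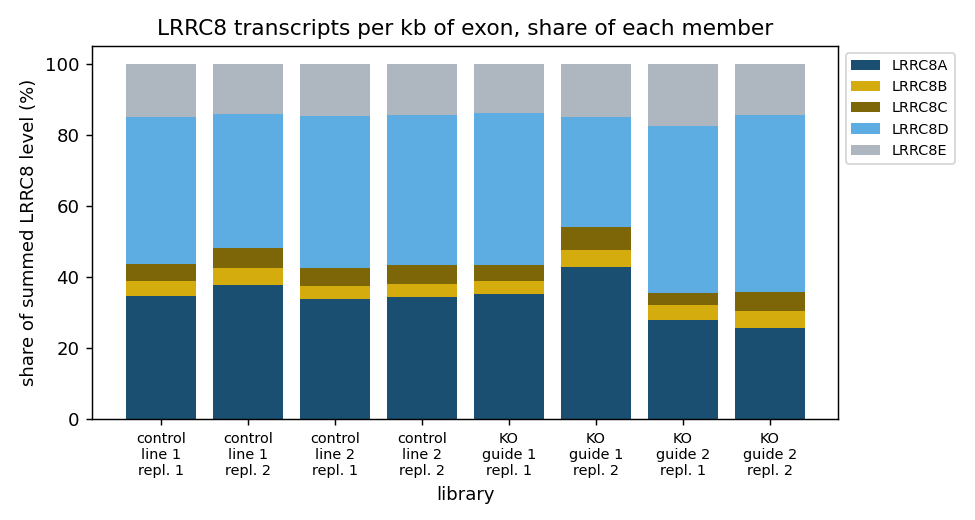
Share of each LRRC8 gene in the summed LRRC8 level (normalized read count per kb of exon) of each library. LRRC8A takes 27.8% and 25.6% in the KO guide 2 libraries and 33.9% to 37.8% in the controls.

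Between replicate 2 and replicate 1, with line allowed for, 17.6% of all genes differed, 8.97% higher and 8.62% lower. Of the chloride channel genes 4 of 18 did, 2 in each direction. CLCN4 fell by 0.67 (SE 0.15, limma adjusted p = 0.0127), CLIC4 fell by 0.29 (SE 0.09, 0.0365), LRRC8C rose by 0.44 (SE 0.12, 0.0257) and ANO10 rose by 0.29 (SE 0.08, 0.0291). CLCN4 and CLIC4 were lower, and LRRC8C and ANO10 higher, in replicate 2 of each of the 4 lines. Without the line terms 0 of all 14040 genes passed, and the smallest limma adjusted p among these 4 was 0.436. Without either replicate of the KO guide 2 line none of the 4 passed, and fewer of all genes passed than in the main fit.

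CLIC1, one of the most widely expressed members of its family, was nearly unread, with 7.36 and 5.20 in control line 1, 10.3 and 7.93 in control line 2, 7.05 and 3.11 in the KO guide 1 line and 2.07 and 6.04 in the KO guide 2 line. It lies in the major histocompatibility complex on chromosome 6. Of 140 protein-coding genes of the table from HLA-F to KIFC1, 15 (10.7%) passed the filter on low values and the highest mean was 65.4. Of the other 854 protein-coding genes of chromosome 6, 62.2% passed. Housekeeping genes of the interval were low as well. RPS18, which encodes a protein of the ribosome, had 4.16 to 14.7, where the median of the other cytosolic ribosomal protein genes was 9958, and the splicing and export helicase gene DDX39B was at 0 in every library. The counts of CLIC1 thus share the low level of its whole region and were not taken as a measure of its transcript. Why the region is low was not tested.

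**Figure D5:**
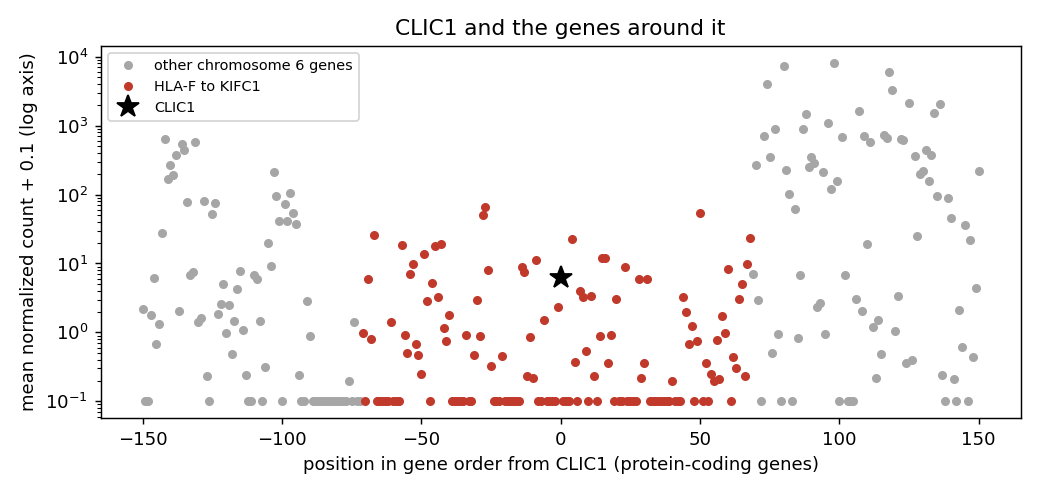
Mean normalized read count over 8 libraries (plus 0.1, log axis) of protein-coding genes by their order from CLIC1 on chromosome 6. Red points are the 140 genes from HLA-F to KIFC1, grey points other genes of the chromosome and the star is CLIC1. No red point exceeds 65.4.

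Around the channels, 41 genes that handle chloride or regulate its channels were listed, and 32 were tested. In the KO guide 1 line 5 rose and 2 fell, beside 7.01% of all genes called, and in the KO guide 2 line 3 rose and 3 fell, beside 11.2%. With the replicate block 9 were higher and 4 lower in the KO guide 1 line, beside 24.4% of all genes, and 6 higher and 5 lower in the KO guide 2 line, beside 27.4%. Between the control lines the block raised the calls from 3 higher and 1 lower to 8 higher and 2 lower, beside 12.5% of all genes. Between the arms limma and edgeR called none of the 32, beside 33 and 186 of all 14040 genes, and DESeq2 called 3, beside 850. In that comparison edgeR and DESeq2 treated the libraries of an arm as independent. An unadjusted limma p under 0.05 was found for 8 of the 32, beside 11.5% of all genes. NHERF2, a scaffold for membrane transporters, rose by 1.61 and 1.29 in the KO guide 1 and KO guide 2 lines, and SLC12A7, the potassium-chloride cotransporter KCC4, by 1.50 and 0.81. Both genes also differed between the 2 control lines, by 2.47 and 1.44, with limma adjusted p-values of 0.0158 and 0.00857. SLC12A7 had 71.7 and 73.8 in control line 1, 205 and 194 in control line 2, 302 and 387 in the KO guide 1 line and 211 and 212 in the KO guide 2 line, so control line 1 stood apart from the other lines.

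CAMK2D, a calcium/calmodulin-dependent kinase, rose by 0.65 and 0.80 in the KO guide 1 and KO guide 2 lines (limma adjusted p = 0.0397 and 0.0131). It had 431 and 309 in control line 1, 552 and 570 in control line 2, 744 and 680 in the KO guide 1 line and 816 and 758 in the KO guide 2 line, with every knockout-labelled library above every control. The control lines differed by 0.62, which passed with the replicate block (limma adjusted p = 0.0129) and not without it (0.119). In the KO guide 1 line WNK1, a kinase that controls cation-chloride cotransporters, rose by 0.71. It was also higher in control line 2 than in control line 1, by 0.69 (limma adjusted p = 0.00358 with the block, 0.0972 without), and in the KO guide 2 line than in the controls, by 0.48 (0.00559 with the block, 0.0914 without). The anion exchanger SLC26A6 fell by 0.74 in the KO guide 1 line, and control line 2 was below control line 1 by the same amount on this scale (limma adjusted p = 0.0166 with the block, 0.108 without). Its means were 405 and 242 in control lines 1 and 2, 187 in the KO guide 1 line and 219 in the KO guide 2 line, the last lower than the controls with the block alone (limma adjusted p = 0.0196). The kinase SGK1, which acts on several transporters, fell by 1.16 in the KO guide 1 line. SLC26A9, an anion transporter with channel activity, had 3.12 to 12.5 in the controls, 30.5 and 22.8 in the KO guide 1 line and 21.7 and 10.9 in the KO guide 2 line. Only 1 control library of SLC26A9 reached 10, so it passed the filter through its knockout-labelled libraries and had to differ to be tested, although it is counted among the 5 that rose. In the KO guide 2 line PACC1, the proton-activated chloride channel, fell by 0.80, WNK4 fell by 0.98 and WNK2 fell by 0.77.

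Differences between the 2 knockout-labelled lines were found for SGK1, higher by 1.53 in the KO guide 2 line, and for WNK2, lower by 0.86. With the replicate block 3 of the 32 were higher and 9 lower in the KO guide 2 line, beside 24.5% of all genes. SLC12A7 was among the latter, at -0.69 (limma adjusted p = 0.0112 with the block, 0.0584 without). Between the control lines OXSR1, a kinase downstream of WNK kinases, fell by 1.03 in control line 2. Between replicates 2 rose (WNK4 and STK39) and 5 fell (AHCYL1, PDZK1, NHERF2, SLC26A1 and SLC4A2), beside 17.6% of all genes called. OSTM1, the partner subunit of ClC-7, had 533 to 924 over the 8 libraries and passed in none of the 6 comparisons without the block. With it OSTM1 was lower in the KO guide 2 line than in the controls (limma adjusted p = 0.0120) and than in the KO guide 1 line (0.0330). The medians over the 32 genes were 0.10 and 0.04 for the KO guide 1 and KO guide 2 lines against the controls.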

How the data were processed

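Polyadenylated RNA of 8 A-498 cultures was sequenced. Per the labels the authors counted reads with featureCounts, and the submitters' processing notes name fastp 0.23.2, HISAT2 2.2.1, featureCounts 2.0.1 and DESeq2 2.11.40.8 with hg38 (GRCh38), without roles. Strand use and annotation are not given in the sources used here. The deposited values are a normalized signal, whole read counts divided by 1 factor per library, with no replicates pooled. Multiplying back gave whole reads (within 0.001) for 100% of values, and these reads were used for the edgeR and DESeq2 alternatives. Symbols were found in RefSeq GRCh38.p14 for 27745 of 28395 identifiers. The 650 others held 0.0332% of reads. Gene coordinates and promoter windows are from the same RefSeq release, exon lengths and overlaps from GENCODE on GRCh38.

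The main test was limma 3.58.1 in R 4.3.3 (lmFit, eBayes with trend) on log2(value + 1), which understates changes of low genes, over the 14040 genes that reached a value of 10 in 2 or more libraries. P-values were adjusted by Benjamini-Hochberg, and under 0.05 was a call. The arms were compared with duplicateCorrelation by line (0.33). For lines, 1 model held each line's mean, and for replicates it held line terms. edgeR 4.0.16 and DESeq2 1.42.0, the pseudocount, filter, scaling, replicate block, line terms and leaving out each library were alternatives. The test was checked on simulated data without variation between lines or a replicate effect, so the check does not cover these. Replicate numbers come from the titles. The differences of replicate 2 from replicate 1 correlated at 0.285 to 0.501 in all 6 pairs of lines, above the limit of 0.1 for pairing, so blocked values are printed where they change a call of a chloride channel gene, and as counts with examples for the related genes. Replicates of a line correlated at 0.978 to 0.987.

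Named with all values were CFTR, LRRC8A, ANO1, ANO6, called genes and the highest of each family, others by count and range or as chosen after their values were seen. The related genes comprised accessory proteins, other anion channels, cation-chloride cotransporters, kinases and anion exchangers. Members and lists were chosen with earlier results of these data known. Results of some genes are not reported here.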

Additional observations from a re-analysis of the deposited data

Results flagged for a closer look

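For 2 chloride channel genes the departures of the 2 knockout-labelled lines from the same 4 control libraries differed by a test of the difference itself. With the replicate block 7 passed, these 2 among them, beside 24.5% of all genes. The values below are from the fit without it. ANO6 was at -0.62 (log2, KO guide 2 line minus KO guide 1 line, SE 0.13, limma adjusted p = 0.0290), with values of 3537 and 3562 against 2395 and 2237. LRRC8A was at -0.73 (SE 0.16, limma adjusted p = 0.0359), with values of 1340 and 1803 against 931 and 940. ANXA4 itself had 236 and 234 in the KO guide 1 line and 3433 and 4142 in the KO guide 2 line. The call of ANO6 was lost without either replicate of control line 1 or of the KO guide 1 line, or without replicate 2 of the KO guide 2 line (limma adjusted p of 0.0596 to 0.186). That of LRRC8A was lost without any 1 library of control line 1, the KO guide 1 line or the KO guide 2 line. Fewer of all genes were called in most of these fits as well.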

How the results depend on the processing

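Counts of chloride channel genes called were 0 (arms), 2 (KO guide 1 line against controls), 2 (KO guide 2 line against controls), 0 (control lines), 2 (between the knockout-labelled lines) and 4 (replicates). With the replicate block they were 0, 5 (ANO9 among them), 4, 1 and 7 for the first 5. A separate mean per line gave 1 for the arms, beside 1474 of all 14040 genes. Equal library totals gave 1 for the KO guide 1 line (808 of all genes), 1 for the control lines (226) and 3 between replicates (2662). DESeq2 gave 1 for the control lines (655 of all genes) and 3 between the knockout-labelled lines (1394), adding CLCN3 (DESeq2 adjusted p = 0.0425). Without a filter on low values 3 were called between replicates, beside 2043 of 20908 genes. Without line terms 0 were called between replicates, as were 0 of all 14040 genes. Leaving out each library gave 0 to 2 for the KO guide 1 line, 0 to 3 for the KO guide 2 line, 0 to 1 for the control lines, 0 to 2 between the knockout-labelled lines and 0 to 2 between replicates. Called log2 differences of ANO6, CLCN3, CLCN2 and LRRC8A kept their sign under every alternative run.

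Signs turned only among differences that were not called. With each library left out, LRRC8A in the KO guide 1 line ranged from -0.11 (without replicate 2 of that line) to 0.32. ANO6 in the KO guide 2 line ranged from -0.069 to 0.030, above 0 without replicate 1 of either control line or replicate 2 of the KO guide 2 line. Between control lines ANO6 ranged from -0.067 to 0.12, below 0 without replicate 2 of control line 1 or replicate 1 of control line 2, and LRRC8A from -0.088 (without replicate 1 of control line 1) to 0.13. With equal library totals ANO6 was at -0.0047 and LRRC8A at -0.0082 between control lines. The causes were not tested. Equal totals moved the median gene of a library by -0.08 to 0.06 on the log2 scale. A line left with 1 library is assumed to vary like the others. Few reads limit ANO9, BEST3 and the 20 untested genes, and whether depth is the reason was not tested.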
